A study of Mus musculus with 18 samples.

Results

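The miR-29 family of the mouse consists of mmu-miR-29a-3p, mmu-miR-29b-3p and mmu-miR-29c-3p, and these 3 mature strands were taken by name from the 1978 mature miRNA rows of a small RNA count table. The table held 203513 features in all, of which 86922 had at least 1 count. Whether and where the family differed between cell fractions, and between wild-type mice and mice with an expanded Ataxin-2, is described here.

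The libraries came from brains of C57BL/6 mice aged 10 months that were either wild type (WT) or homozygous for Atxn2-CAG100-KIN (KIN), a constitutive knock-in of an expanded CAG repeat into Atxn2 and a model of spinocerebellar ataxia type 2. Both genotypes were described as littermates, and no animal was treated. Magnetic beads removed microglia by CD11b, then astrocytes by ACSA-2, and the cells labelled neurons were collected last from the same suspension. Each of the 6 groups (Astrocytes, Microglia and Neurons, WT and KIN) had 3 libraries, which the labels number as biological replicates without saying that each number is a separate brain, so the p-values measure the spread between these libraries. Since the 3 fractions came from a single brain in turn, libraries of different fractions are not independent, and fits with the replicate number as a block are given where they change a call.

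A miRNA guides an Argonaute protein to messenger RNAs, mostly through the seed, bases 2 to 8 of the mature strand, and lowers their translation and stability. The miR-29 family is known as a repressor of collagens and other matrix genes, of DNA methyltransferases and of BH3-only cell death genes, and in the brain it is abundant in astrocytes and rises as neurons mature. It is made from 4 hairpins in 2 clusters, and the miR-29b-3p strand is made from both clusters.

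The 3 mature strands are shown first because their likeness decides what can be told apart by counting. Capitals mark the seed, and the sequences are from RefSeq.
mmu-miR-29a-3p: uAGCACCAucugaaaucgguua
mmu-miR-29b-3p: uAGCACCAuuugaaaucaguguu
mmu-miR-29c-3p: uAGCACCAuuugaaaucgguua
The seed AGCACCA was found at these positions in 3 of the 1978 mature miRNAs, the 3 members. Counted from the 5′ end, miR-29c-3p differed from miR-29a-3p by C10U alone over 22 bases. miR-29b-3p has 23 bases, shares its first 17 with miR-29c-3p and then differs by G18A, U21G and A22U. A read that ends before base 18 therefore cannot separate miR-29b-3p from miR-29c-3p.

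The 4 hairpins are shown with both mature arms in capitals, since the 5p arms differ where the 3p arms do not.
Mir29b-2: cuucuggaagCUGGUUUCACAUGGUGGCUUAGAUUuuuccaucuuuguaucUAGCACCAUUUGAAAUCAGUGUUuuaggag
Mir29c: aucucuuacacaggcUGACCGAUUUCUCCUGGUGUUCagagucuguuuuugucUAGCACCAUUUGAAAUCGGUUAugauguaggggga
Mir29b-1: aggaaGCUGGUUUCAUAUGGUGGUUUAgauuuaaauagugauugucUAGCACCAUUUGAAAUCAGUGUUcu
Mir29a: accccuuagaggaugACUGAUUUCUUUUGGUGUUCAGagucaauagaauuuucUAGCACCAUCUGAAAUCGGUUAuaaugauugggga
On GRCm39 the pair Mir29b-2 (chr1:194719348-194719428, plus strand) and Mir29c (chr1:194719855-194719942, plus strand) lies 426 bases apart. The pair Mir29a (chr6:31039595-31039682, minus strand) and Mir29b-1 (chr6:31039958-31040028, minus strand) lies 275 bases apart. Both chromosome 1 hairpins lie in exon 3 of the noncoding transcript A330023F24Rik-204 on the same strand, and in exon 11, the last, of Cd46-203, a transcript of a complement regulator, on the opposite strand. Both chromosome 6 hairpins lie in an intron of the noncoding transcript Gm67885-201, which was not used here. Because the 3p strand of miR-29b is the same for both clusters, only its 5p arms, miR-29b-1-5p and miR-29b-2-5p, carry the cluster of origin.

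Libraries held 3144427 to 3980687 counts in Astrocytes, 3148211 to 4316748 in Microglia and 1211118 to 2427384 in Neurons, and mature miRNAs made up 5.05 to 10.3%, 5.09 to 8.45% and 0.964 to 2.13% of them. Levels below are counts-per-million values (CPM) of all counts in the library unless stated otherwise, and they are relative levels. Statements that libraries did or did not overlap are descriptions. The share of all features without such overlap was not computed. The paper states that equal RNA amounts went into cDNA preparation, and gives no input amount for the small RNA libraries. In sorted bulk samples, fewer cells of a type and less RNA per cell cannot be told apart. The myeloid markers miR-142a and miR-223 summed to 2835 to 5914 CPM in Microglia and 10.2 to 48.5 CPM in Astrocytes. The 2 strands of miR-9, an astrocyte and progenitor marker, summed to 5835 to 9496 CPM in Astrocytes and 59.1 to 245 CPM in Microglia. The data went against the Neurons label in the comparison with Astrocytes. The 5 neuron markers, miR-124 among them, summed to 52.8 to 242 CPM in Neurons against 1053 to 3229 CPM in Astrocytes. As CPM of mature miRNA counts alone, the gap was smaller, with 5482 to 12546 in Neurons and 12488 to 38886 in Astrocytes. On that scale Neurons lay above Microglia (702 to 3280), and below Astrocytes within each genotype. This fraction is therefore called by its label only. The markers of other cells also reached the Astrocytes fraction, with 830 to 2148 CPM of oligodendrocyte, 1494 to 2966 CPM of ependymal and epithelial and 489 to 870 CPM of vascular miRNAs, and the erythroid list stayed between 17.3 and 303 CPM in every group. The counts of Xist, which is read from the inactive X chromosome, were 4 to 5 in the 3 libraries of KIN replicate 1 and 12 to 102 in the other 15, so that the KIN replicate 1 libraries lay below all others, while WT replicate 1 had 12 to 37. The study's methods describe same-sex littermate pairs, 2 male and 1 female. These counts do not show that division, since KIN replicate 1 alone was set apart and the pair numbered 1 did not match. The part of sex in the differences between KIN and WT was not tested.

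miR-29a-3p and miR-29b-3p were among the most counted miRNAs of Microglia, while miR-29c-3p was a miRNA of the Astrocytes fraction. In Microglia miR-29b-3p ranked 5 to 8 and miR-29a-3p ranked 7 to 10 among all mature miRNAs of a library. In Astrocytes their ranks were 12 to 18 and 22 to 24. miR-29c-3p ranked 32 to 43 in Astrocytes and 57 to 75 in Microglia. The 3 members together were 3.23 to 4.36% of mature miRNA counts in Astrocytes, 5.78 to 6.53% in Microglia and 1.10 to 3.01% in Neurons.

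**Figure D1:**
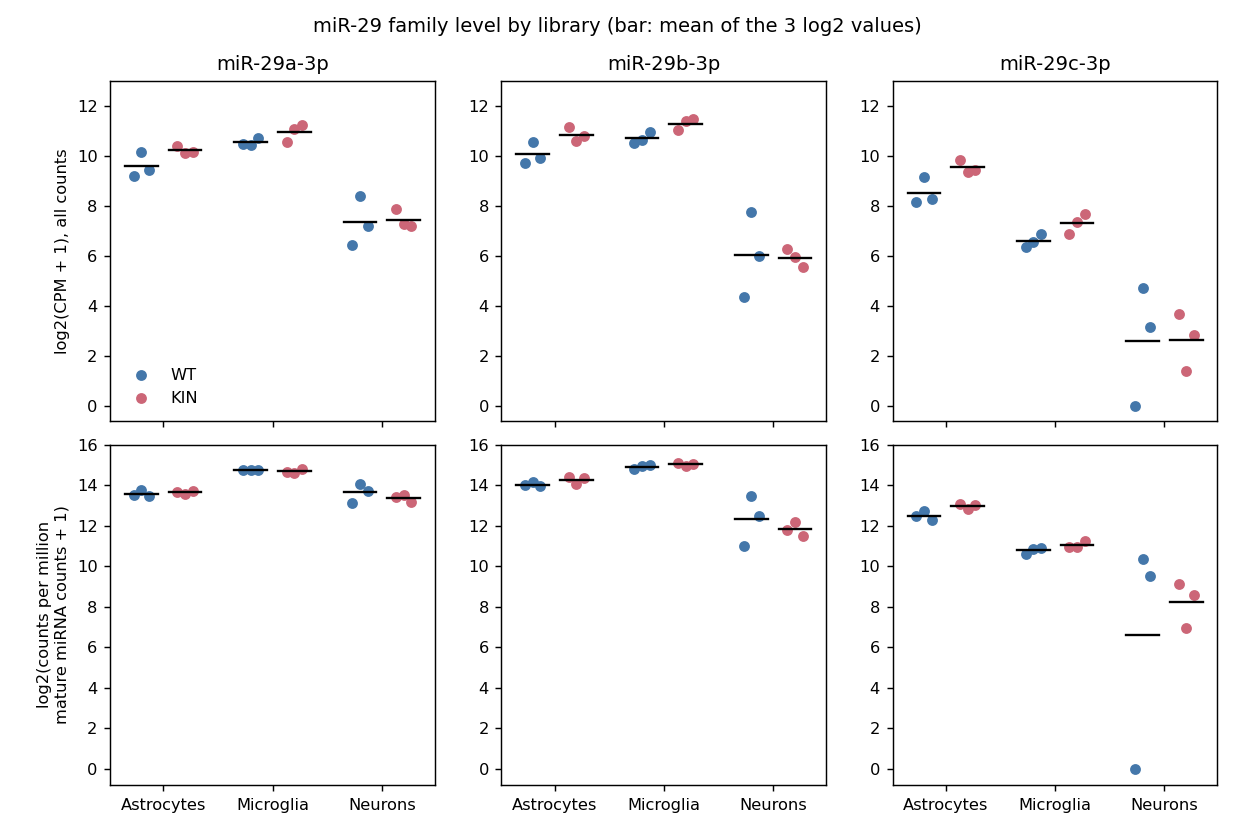
Level of each member in each of the 18 libraries, as log2(CPM + 1) in the upper panels and with mature miRNA counts alone as the total in the lower panels, for Astrocytes, Microglia and Neurons from WT and KIN brains; points are libraries and bars are the mean of the 3 log2 values. miR-29c-3p is low in Microglia and Neurons on both scales, and Neurons WT replicate 1 has 0 counts of it.

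miR-29a-3p had 588, 1144 and 689 CPM in the WT Astrocytes libraries 1, 2 and 3 and 1336, 1127 and 1154 CPM in the KIN libraries. In Microglia it had 1441, 1391 and 1668 CPM in WT and 1519, 2151 and 2396 CPM in KIN. In Neurons it had 85.9, 337 and 148 CPM in WT and 235, 156 and 146 CPM in KIN. WT library 2 was the highest of its group in Astrocytes and in Neurons, and it alone kept the genotypes overlapping in Astrocytes. The order of group means was Microglia KIN (2022 ± 453, SD, n = 3), Microglia WT (1500 ± 147), Astrocytes KIN (1206 ± 114), Astrocytes WT (807 ± 296), Neurons WT (190 ± 131) and Neurons KIN (179 ± 48.7). The 2 genotypes of each fraction were neighbours in that order and overlapped, and the 3 fractions did not overlap.

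miR-29b-3p, the strand with 2 sources, had 833, 1524 and 968 CPM in WT Astrocytes and 2267, 1563 and 1787 CPM in KIN Astrocytes. In Microglia it had 1465, 1613 and 1974 CPM in WT and 2100, 2670 and 2857 CPM in KIN. In Neurons it had 19.8, 219 and 62.8 CPM in WT and 75.9, 61.4 and 46.2 CPM in KIN. The KIN libraries lay above the WT libraries without overlap in Astrocytes and in Microglia, while in Neurons WT library 2 was the highest of the 6 and WT library 1 the lowest. Relative to mature miRNA counts alone, the genotypes overlapped in Astrocytes and in Microglia as well. Microglia KIN (2542 ± 395), Astrocytes KIN (1872 ± 360), Microglia WT (1684 ± 262) and Astrocytes WT (1108 ± 367) followed each other with overlapping ranges, and both Neurons groups (WT 100.5 ± 105, KIN 61.2 ± 14.9) lay below them.

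miR-29c-3p had 288, 571 and 309 CPM in WT Astrocytes and 906, 666 and 699 CPM in KIN Astrocytes. In Microglia it had 81.2, 92.7 and 115 CPM in WT and 117, 165 and 204.1 CPM in KIN. In Neurons it had 0, 49 and 12 counts in the WT and 28, 4 and 15 counts in the KIN libraries, where 3 counts are 1.24 to 2.48 CPM. The order was Astrocytes KIN (757 ± 130), Astrocytes WT (389 ± 158), Microglia KIN (162 ± 43.9), Microglia WT (96.4 ± 17.4), Neurons WT (11.0 ± 12.8) and Neurons KIN (6.59 ± 5.16). Neighbours in that order did not overlap, apart from the 2 Neurons groups.

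Between fractions, 1 member of 3 passed the test between Microglia and Astrocytes, and it was lower in Microglia. The fit across all 18 libraries (edgeR quasi-likelihood, 8204 features; a call needed an adjusted p no higher than 0.05 and a log2 fold change no smaller than 1 in size) called miR-29c-3p lower in WT Microglia (log2 fold change −1.97, SE 0.56, adjusted p = 0.0105) and in KIN Microglia (−2.09, SE 0.56, adjusted p = 0.00794). These comparisons called 25.5% and 20.9% of all features, and 51.5% and 52.8% of mature miRNAs. The WT call was lost without Astrocytes WT replicate 2 (−1.36, adjusted p = 0.0770) or without Microglia WT replicate 1 (−1.70, adjusted p = 0.0573), and the KIN call held without each of the 6 libraries in turn.

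miR-29a-3p had a log2 difference between Microglia and Astrocytes of 0.93 (SE 0.37, adjusted p = 0.0645) in WT and 0.88 (SE 0.37, adjusted p = 0.0962) in KIN, neither of which passed. With a block for the replicate number within genotype the WT difference was 1.05 and passed (adjusted p = 0.00573), and that in KIN was 0.89 (adjusted p = 0.0217), below the fold required. When totals and TMM factors were taken from mature miRNA rows alone (the mature miRNA scale), the same differences were 1.03 (adjusted p = 7.36e-05) and 1.01 (adjusted p = 7.82e-05), and both passed. Without Astrocytes WT replicate 2 the WT difference was 1.49 and passed (adjusted p = 0.00871). miR-29b-3p differed by 0.65 (SE 0.47, adjusted p = 0.312) in WT and 0.58 (SE 0.47, adjusted p = 0.430) in KIN and was not called on either scale.

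All 3 members were lower in Neurons than in both other fractions in WT and in KIN. These comparisons called 32.6% of all features for Neurons against Astrocytes in WT, 28% in KIN, 26.3% for Neurons against Microglia in WT and 33.5% in KIN, and among mature miRNAs the shares called lower were far larger than those called higher, 283 against 12 of 485 for the first of these. Against WT Astrocytes the log2 differences were −2.42 (SE 0.39) for miR-29a-3p, −3.77 (SE 0.53) for miR-29b-3p and −5.39 (SE 0.67) for miR-29c-3p. Against KIN Astrocytes they were −3.11, −5.28 and −7.21. Against Microglia the 3 differences came to −3.36, −4.43 and −3.42 in WT and −3.98, −5.86 and −5.12 in KIN, and the largest adjusted p of these 12 was 0.000184. The median mature miRNA had a log2 difference between Neurons and Astrocytes of −2.69 in WT and −3.26 in KIN. On the mature miRNA scale miR-29a-3p had a log2 difference between Neurons and Astrocytes of −0.13 (adjusted p = 0.627) in WT and −0.09 (adjusted p = 0.720) in KIN, while miR-29b-3p and miR-29c-3p stayed lower on that scale (−1.59 and −3.10 in WT, −2.26 and −4.20 in KIN). Neurons WT replicate 2 moved the WT differences most: without it the values against Astrocytes were −3.27, −5.23 and −7.00.

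The members thus took different shares of the family in each fraction. In WT Astrocytes miR-29a-3p held 34.9 ± 0.469% of the family counts, miR-29b-3p 48.3 ± 1.13% and miR-29c-3p 16.7 ± 0.948% (SD, n = 3). In WT Microglia the shares were 45.9 ± 2.09%, 51.2 ± 1.90% and 2.93 ± 0.185%. In WT Neurons they were 69.0 ± 11.7%, 28.4 ± 9.47% and 2.64 ± 2.31%. The miR-29c-3p share of every Microglia library lay below that of every Astrocytes library.

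**Figure D2:**
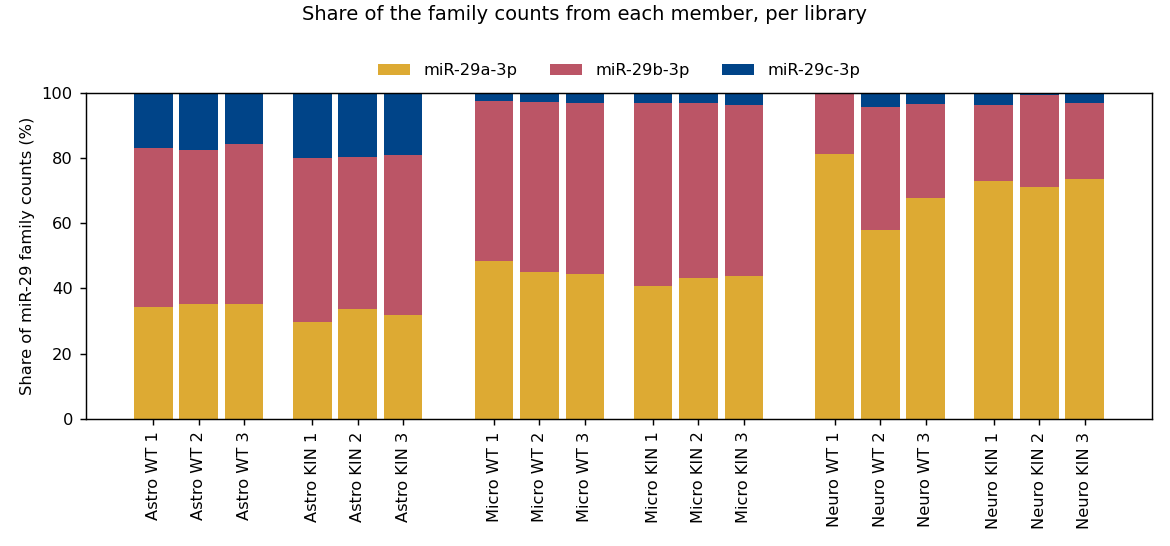
Share of the summed miR-29a-3p, miR-29b-3p and miR-29c-3p counts, in percent, held by each member in each of the 18 libraries, grouped by fraction and genotype. The miR-29c-3p part is 15.7 to 20.1% in Astrocytes and 2.72 to 3.74% in Microglia.

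The 5p arms, which carry the cluster of origin, differed between the fractions by cluster. Of the 4 partner arms, both from chromosome 6 were higher in Microglia than in Astrocytes and both from chromosome 1 were lower, in WT and in KIN. miR-29a-5p had 103, 174 and 130 counts in WT Astrocytes and 410, 387 and 485 in WT Microglia, a log2 difference of 1.69 (SE 0.41, adjusted p = 0.00304). miR-29b-1-5p had 2 to 6 counts in WT Astrocytes and 9 to 13 in WT Microglia (1.52, SE 0.51, adjusted p = 0.0301). Both chromosome 6 arms lay higher in each Microglia library than in any Astrocytes library of the same genotype.

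miR-29b-2-5p had 18, 40 and 30 counts in WT Astrocytes and 9, 3 and 4 in WT Microglia (−2.41, SE 0.53, adjusted p = 0.00137). miR-29c-5p had 55, 133 and 67 counts in WT Astrocytes and 17, 19 and 19 in WT Microglia (−2.14, SE 0.43, adjusted p = 0.000596). For both, all Astrocytes libraries lay above all Microglia libraries. The KIN libraries gave differences of 1.44, 1.31, −1.97 and −1.98 for the 4 arms, and all were called (adjusted p of 0.0109, 0.0448, 0.00425 and 0.000851). The miR-29b-1-5p call rests on few counts: it was lost in KIN without each library in turn and in WT without Astrocytes replicate 1, Astrocytes replicate 3 or Microglia replicate 2, with estimates between 1.07 and 2.00, and DESeq2 called it in neither genotype (1.44 and 1.29). With the replicate block its KIN difference was 1.32 and did not pass (adjusted p = 0.0668). The miR-29a-5p call in KIN was lost without Microglia replicate 2 (1.29, adjusted p = 0.0545), and the calls of both chromosome 1 arms held without each library.

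Taken over the 6 libraries of a fraction, 13.4% of the miR-29b 5p counts in Astrocytes came from Mir29b-1 (32 counts against 207 from Mir29b-2, 95% Wilson interval 9.65 to 18.3%), and 64.1% in Microglia (84 against 47 counts, 55.6 to 71.8%). By library this share was 6.25 to 19.0% in Astrocytes and 50 to 82.4% in Microglia, so that the fractions did not overlap. Neurons had 8 counts of miR-29b-1-5p and 3 of miR-29b-2-5p in all 6 libraries, too few for a comparison. These intervals cover counting error only, and reads were not stated to be collapsed by molecule. Per 100 counts of miR-29b-3p there were 0.867 counts of the miR-29b 5p arms in WT Astrocytes and 0.287 in WT Microglia. In KIN the values were 0.709 and 0.265. The division of the 5p counts therefore need not be that of miR-29b-3p, whose source was not measured.

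**Figure D3:**
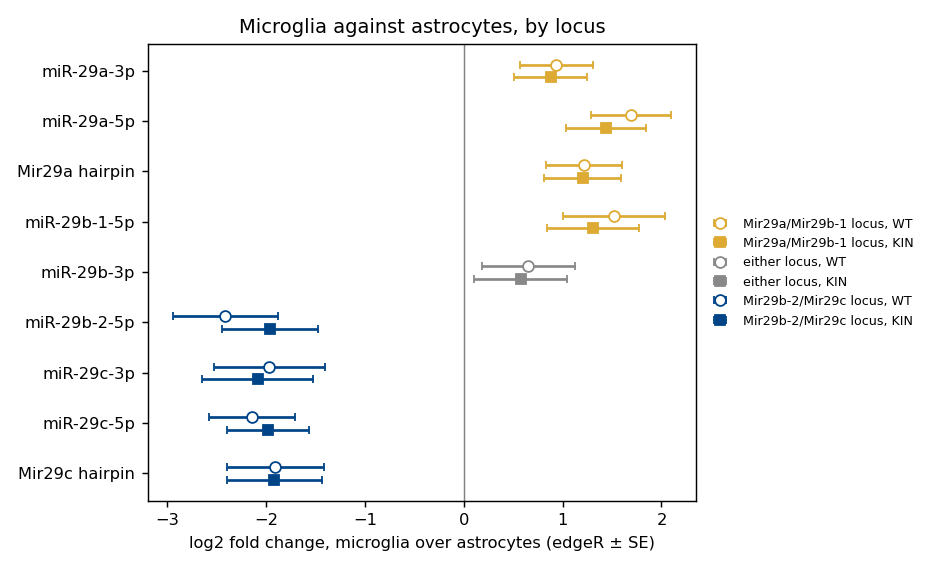
Log2 fold change of Microglia over Astrocytes (x axis, edgeR estimate with its standard error) for the members, their partner arms and the Mir29a and Mir29c hairpin rows, in WT (open circles) and KIN (filled squares), coloured by the cluster they come from. The products of Mir29a and Mir29b-1 lie above 0, those of Mir29b-2 and Mir29c lie near −2, and miR-29b-3p, which either cluster can give, lies at 0.65 and 0.58.

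The rows of the hairpin genes followed the sequences they share. The Mir29a hairpin row was higher in Microglia (1.21 in WT, adjusted p = 0.0213; 1.201 in KIN, adjusted p = 0.0263) and the Mir29c hairpin row was lower (−1.91, adjusted p = 0.00493; −1.92, adjusted p = 0.00473). The Mir29a call was lost in WT without Astrocytes replicate 1, Astrocytes replicate 3 or Microglia replicate 2 and in KIN without Astrocytes replicate 1, Astrocytes replicate 3, Microglia replicate 2 or Microglia replicate 3, and the Mir29c call in WT was lost without Astrocytes replicate 2 (−1.32, adjusted p = 0.0501). The Mir29b-1 and Mir29b-2 rows gave 0.64 and 0.59 in WT and were not called. Mir29b-1 held 49.0%, 49.4% and 50.4% of the counts of these 2 rows in Astrocytes, Microglia and Neurons, nearly an even division in each fraction, unlike the 5p arms. Reads reached these rows after the mature miRNA rows, and the 3p strand is the same in both hairpins, so the hairpin rows of miR-29b do not carry the cluster of origin.

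The transcripts that overlap the chromosome 1 hairpins were counted at levels that followed miR-29b-3p. Cd46-203 had 80555 counts, and the other 3 Cd46 transcripts had 3 counts together. Its counts were 75 to 110 for each 100 counts of miR-29b-3p, with a Pearson r of 0.999 to miR-29b-3p over the 18 libraries (log2(CPM + 1)). A330023F24Rik-204 had 28218 counts, the other 3 transcripts of that gene had 33, and its counts were 19.8 to 40.7 for each 100 of miR-29b-3p (r = 0.997). The points of these correlations share library and depth. Of the miR-29b hairpins only Mir29b-2 lies in these transcripts, but the miR-29b-3p sequence is the same from Mir29b-1, so reads from either cluster can match them. The stretch that gives miR-29b-3p lies within an exon of both transcripts. A330023F24Rik-204 lies on the strand of the hairpins and Cd46-203 on the opposite strand, and reads were counted without strand. The counts of either transcript and those of the hairpins inside it therefore cannot be told apart. Both rows followed miR-29c-3p, whose hairpin lies in the same exons, less closely than miR-29b-3p (r = 0.924 for each).

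**Figure D4:**
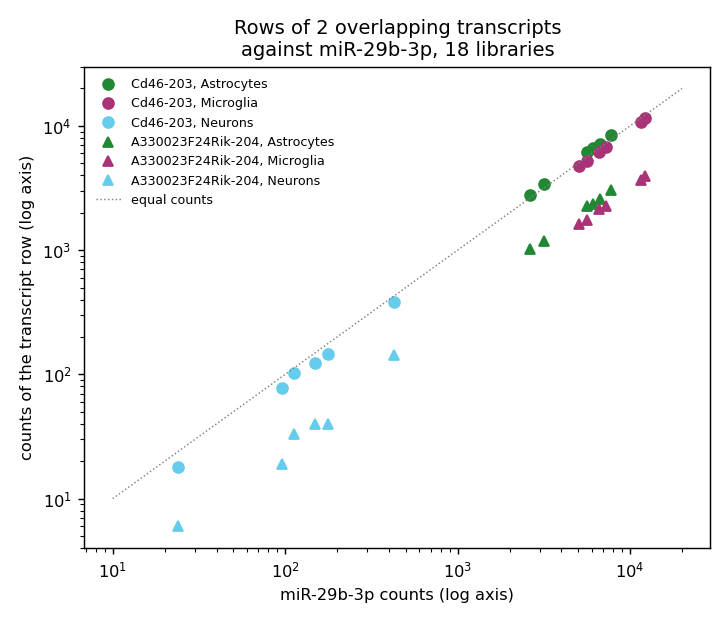
Counts of miR-29b-3p (x axis) against counts of Cd46-203 (circles) and A330023F24Rik-204 (triangles), transcripts with an exon that holds both chromosome 1 hairpins, on log axes for each of the 18 libraries, coloured by fraction; the dotted line marks equal counts. Cd46-203 lies along that line, at 75 to 110 counts for each 100 of miR-29b-3p, and A330023F24Rik-204 lies below it.

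Between genotypes, the member estimates were above 0 in Astrocytes and in Microglia and below 0 in Neurons, and 1 of these 9 comparisons passed the test. Each fraction was fitted alone in edgeR over all its features, of which 8.18% were called in Astrocytes (5694 tested), 4.35% in Microglia (4940 tested) and 0 in Neurons (4535 tested). In Neurons 197 features had an unadjusted p below 0.05, and DESeq2 called 0 as well. miR-29c-3p rose in KIN Astrocytes (log2 fold change 1.07, SE 0.26, adjusted p = 0.0322), higher in each KIN library than in any WT library. miR-29b-3p had 0.87 (SE 0.22, adjusted p = 0.0383), below the fold required, and miR-29a-3p had 0.69 (SE 0.23, adjusted p = 0.0691).

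The Astrocytes call depends on the libraries and on the scaling. It was lost without WT replicate 1 (0.85), WT replicate 3 (0.89), KIN replicate 1 (0.95), KIN replicate 2 (1.14) or KIN replicate 3 (1.12), with adjusted p of 0.0853 to 0.132, and it held without WT replicate 2. It was also lost without TMM scaling (0.96, adjusted p = 0.0358) and when all 18 libraries shared a fit (1.08, adjusted p = 0.271). WT replicate 2, the highest WT library for all 3 members, also decided the other 2: without it miR-29a-3p had 1.05 (adjusted p = 0.000194), miR-29b-3p 1.19 (adjusted p = 0.000300) and miR-29c-3p 1.47 (adjusted p = 0.000103), and all 3 were called. That setting called 1527 of all features against 466 with all libraries.

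Without KIN replicate 1, the libraries set apart by Xist, miR-29a-3p had 0.64, miR-29b-3p 0.73 and miR-29c-3p 0.95 in Astrocytes, 0.74, 0.85 and 1.07 in Microglia and −0.29, −0.85 and −1.505 in Neurons, the same signs as with it.

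In KIN Microglia the log2 differences were 0.64 (SE 0.19, adjusted p = 0.0854) for miR-29a-3p, 0.81 (SE 0.19, adjusted p = 0.0483) for miR-29b-3p and 0.96 (SE 0.25, adjusted p = 0.0584) for miR-29c-3p, and no member was called. In CPM of all counts, miR-29b-3p and miR-29c-3p were higher in each KIN library than in any WT library of Microglia, while miR-29a-3p overlapped. Relative to mature miRNA counts alone, miR-29b-3p overlapped too, and miR-29c-3p did not. miR-29c-3p passed without Microglia WT replicate 2 (1.03, adjusted p = 0.0201) or without Microglia KIN replicate 1 (1.07, adjusted p = 0.0274).

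In Neurons the differences were −0.08 (SE 0.46, adjusted p = 0.987), −0.70 (SE 0.67, adjusted p = 0.917) and −0.80 (SE 0.93, adjusted p = 0.918) for miR-29a-3p, miR-29b-3p and miR-29c-3p. All 3 turned positive, 0.57, 0.51 and 0.57, without Neurons WT replicate 2, so no direction is given there. This library held 659 of the 989 miR-29a-3p counts and 428 of the 548 miR-29b-3p counts of its group.

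Summed over the 3 members, the log2 ratio of mean TMM-scaled CPM of KIN over WT was 0.85 in Astrocytes, 0.74 in Microglia and −0.28 in Neurons, given without a test.

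The shift in KIN was shared by most mature miRNAs. In Astrocytes 346 of 418 mature miRNAs tested had a log2 difference above 0, with a median of 0.58, against a median of −0.19 over all features, and 56 were called, 47 higher and 9 lower. In Microglia 267 of 382 were above 0, with a median of 0.46 against −0.11, and 40 were called, 32 higher and 8 lower. By size of log2 difference, miR-29a-3p, miR-29b-3p and miR-29c-3p took places 181, 136 and 89 of 418 in Astrocytes and 146, 112 and 78 of 382 in Microglia. The members therefore lay above the median miRNA, by 0.11 to 0.49 in Astrocytes and 0.18 to 0.50 in Microglia, and well short of the top.

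On the mature miRNA scale, the Astrocytes differences were 0.05 (adjusted p = 0.814) for miR-29a-3p, 0.21 (adjusted p = 0.221) for miR-29b-3p and 0.43 (adjusted p = 0.0387) for miR-29c-3p. In Microglia they were 0.22 (adjusted p = 0.0342), 0.40 (adjusted p = 0.00267) and 0.54 (adjusted p = 0.00880). None reached the fold required. As plain CPM of mature miRNA counts without TMM, miR-29a-3p averaged 26672 in KIN and 27685 in WT Microglia, a log2 ratio of −0.054 with overlapping libraries, so its direction there turned with the scaling. On the fitted mature miRNA scale 10 mature miRNAs were called higher and 22 lower in Astrocytes and 22 higher and 45 lower in Microglia, against 47 and 9 and 32 and 8 on library totals. On both scales and in both fractions the order was miR-29c-3p, miR-29b-3p, miR-29a-3p. Beside these differences, mature miRNAs made up 5.05 to 8.30% of counts in WT Astrocytes and 8.43 to 10.3% in KIN Astrocytes, and 5.09 to 5.99% in WT Microglia and 5.86 to 8.45% in KIN Microglia.

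None of the 4 partner arms was called between KIN and WT. In Astrocytes miR-29a-5p had a log2 difference of 0.37, miR-29b-1-5p 0.81, miR-29b-2-5p 0.52 and miR-29c-5p 0.81, and in Microglia the same arms had 0.12, 0.62, 0.96 and 0.99, with the lowest adjusted p at 0.0928 for miR-29c-5p in Astrocytes.

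**Figure D5:**
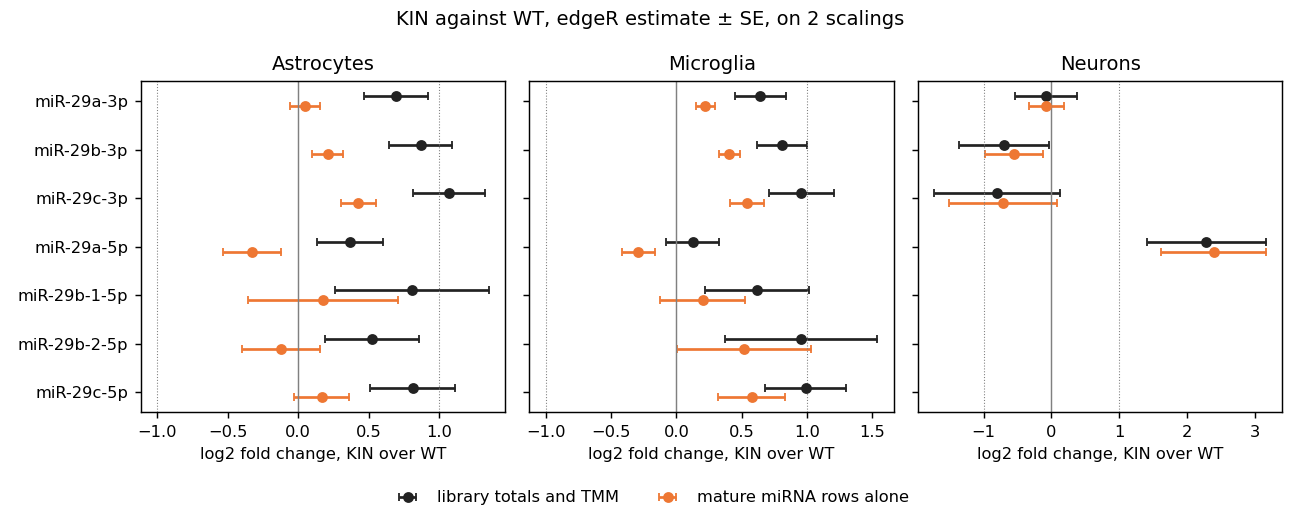
Log2 fold change of KIN over WT in each fraction for the 3 members and the partner arms that were tested, of which only miR-29a-5p was tested in Neurons, as edgeR estimates with their standard errors, with totals and TMM factors from all features (black) or from mature miRNA rows alone (orange); dotted lines mark a log2 fold change of 1 in size. In Astrocytes and Microglia the member estimates lie between 0.64 and 1.07 on the first scale and between 0.05 and 0.54 on the second.

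Within the family, the share of miR-29a-3p was smaller and that of miR-29c-3p larger in KIN than in WT in both glial fractions, without overlap of libraries. The miR-29a-3p share averaged 34.9% in WT and 31.6% in KIN Astrocytes, a difference of −3.30 points, and 45.9% against 42.6% in Microglia, −3.29 points. The miR-29c-3p share was 19.7% in KIN against 16.7% in WT Astrocytes, 2.98 points more, and 3.39% against 2.93% in Microglia, 0.464 points more. Each of these 4 had an exact two-sided permutation p of 0.1, the smallest that 3 against 3 libraries allow, and 0.225 after adjustment over 9 tests, so none could pass. The miR-29b-3p share overlapped between genotypes in all fractions.

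Markers of other cell types moved with genotype in Astrocytes, not all in one direction. The myeloid list, all 3 measured, summed to 10.2 to 12.6 CPM in WT and 24.99 to 48.5 CPM in KIN. The 2 oligodendrocyte markers summed to 830 to 1496 CPM in WT and 1510 to 2148 CPM in KIN, and the 7 ependymal and epithelial markers to 1494 to 2222 CPM in WT and 2629 to 2966 CPM in KIN, with no member of these 3 lists at 0 over either Astrocytes group. The last sum was carried by miR-34c-5p (730 to 1180 CPM in WT, 1706 to 1774 CPM in KIN) and miR-34b-5p, while the epithelial miR-200a-3p, miR-200b-3p and miR-429-3p went the other way, with means of 30.3, 26.6 and 13.2 CPM in WT and 0.186, 0.658 and 0.465 CPM in KIN, and miR-204-5p overlapped. miR-9 summed to 5835 to 9496 CPM in WT and 6926 to 7335 CPM in KIN, and the neuron list to 1382 to 3229 CPM and 1053 to 2043 CPM. Within the neuron list miR-138-5p was higher in KIN without overlap (90.6 to 120 CPM in WT, 168 to 203 CPM in KIN). The other neuron markers had lower means in KIN. In Microglia the myeloid list was 2835 to 3389 CPM in WT and 3097 to 5914 CPM in KIN, while miR-9 (82.3 to 245 CPM in WT, 59.1 to 68.6 CPM in KIN) and the neuron list (64.8 to 170 CPM in WT, 51.8 to 62.5 CPM in KIN) were lower in KIN without overlap. The oligodendrocyte list was higher there without overlap, 19.3 to 21.5 CPM in WT and 22.6 to 32.7 CPM in KIN. That rise was carried by miR-338-3p (means of 17.2 and 26.7 CPM), while miR-219a-2-3p was lower in KIN (3.01 and 1.82 CPM). The ependymal and epithelial list overlapped, at 252 to 349 CPM in WT and 235 to 334 CPM in KIN. Within it miR-200a-3p, miR-200b-3p and miR-429-3p had means of 20.4, 17.6 and 8.38 CPM in WT and 2.46, 3.19 and 0.985 CPM in KIN. miR-204-5p went the other way, with means of 165 and 229 CPM and overlapping libraries. The part of these markers in the miR-29 differences was not tested.

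The difference between KIN and WT did not itself differ between fractions by the test of that difference. Over all features the 3 interaction contrasts called 0.146% (Microglia against Astrocytes), 0 (Neurons against Astrocytes) and 1.23% (Neurons against Microglia), and no member was among them. In the contrast with 0 calls, 749 of 8204 features had an unadjusted p below 0.05, and DESeq2 called 0. The KIN effect in Microglia minus that in Astrocytes was −0.06 (SE 0.52) for miR-29a-3p, −0.07 (SE 0.66) for miR-29b-3p and −0.12 (SE 0.76) for miR-29c-3p. For Neurons minus Astrocytes the values were −0.68 (SE 0.52), −1.51 (SE 0.68, adjusted p = 0.536) and −1.82 (SE 0.86, adjusted p = 0.538). For Neurons minus Microglia they were −0.63, −1.43 and −1.70. Without Neurons WT replicate 1, miR-29b-3p (−2.13) was called in the last contrast, and without Neurons KIN replicate 1 or Neurons WT replicate 1 the estimates for miR-29c-3p reached −2.58 and −2.45, of which the second was called.

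The ratio of the 5p to the 3p arm of miR-29a was lower in KIN than in WT Microglia, without overlap of libraries and without a test. Per 100 counts of miR-29a-3p there were 8.04 ± 0.135 counts of miR-29a-5p in WT Microglia and 5.66 ± 0.838 in KIN Microglia (SD, n = 3), with ranges of 7.93 to 8.19 and 4.77 to 6.43. In Astrocytes the ratios were 5.04 ± 1.06 in WT and 3.83 ± 0.971 in KIN, with overlap. The miR-29c ratio in Astrocytes was also lower in KIN, narrowly without overlap (5.85 to 6.58 in WT, 4.48 to 5.84 in KIN). The miR-29c ratio in Microglia and the miR-29b ratios in Astrocytes and Microglia overlapped. Arm ratios of other miRNAs were not computed, so there is no background for these separations. In Neurons miR-29a-5p had 0, 6 and 0 counts in WT and 21, 14 and 9 in KIN. The KIN libraries were all higher than the WT libraries there, but this arm reached the filter of 5 counts in 2 libraries only through KIN. That separation is therefore not taken as evidence. The difference did not pass (log2 fold change 2.29, SE 0.88, adjusted p = 0.917) and its estimate ranged from 1.77 to 6.60 as single libraries were left out.

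The mature miRNAs whose levels were most like a member over the 18 libraries were found by Pearson r of log2(CPM + 1) among 171 miRNAs with a mean of at least 10 CPM. For miR-29a-3p these were miR-15a-5p (0.990), miR-103-3p (0.987), miR-185-5p (0.984), miR-148b-3p (0.983) and miR-423-3p (0.982). For miR-29b-3p they were miR-103-3p (0.989), miR-34a-5p (0.988), miR-24-3p (0.984), miR-107-3p (0.982) and miR-22-3p (0.981). For miR-29c-3p they were miR-23b-3p (0.979), miR-27b-3p (0.979), miR-872-3p (0.979), miR-872-5p (0.977) and miR-30c-5p (0.972). miR-23b and miR-27b come from a shared cluster and miR-872-3p and miR-872-5p from a single hairpin. Points share library, depth and the low miRNA share of Neurons: of the first 5, Spearman correlation kept 1, 1 and 4, and levels relative to mature miRNA counts kept 0, 4 and 2. Among the members r was 0.986 for miR-29a-3p with miR-29b-3p, 0.909 for miR-29b-3p with miR-29c-3p and 0.848 for miR-29a-3p with miR-29c-3p, and 0.792, 0.732 and 0.325 on the mature miRNA scale.

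Counts of genes tied to the family were low, since a small RNA library holds only short fragments of messenger RNAs. With transcript rows summed by gene name, 9.95% of 5027 genes were called between KIN and WT in Astrocytes, 2.26% of 3976 in Microglia and 0 of 4160 in Neurons, with medians of −0.35, −0.10 and −0.09 on the log2 scale. Of 14 genes that make or use miRNAs, 10, 9 and 9 could be tested in Astrocytes, Microglia and Neurons, and none passed in any fraction. The list medians were −0.02, 0.16 and −0.35. The 3 with most counts were Tut7, a terminal uridylyltransferase (0.38, 0.16 and −0.54), Tnrc6b, an Argonaute partner (−0.03, 0.16 and −0.66), and Dgcr8, the RNA-binding partner of Drosha (−0.07, 0.44 and 0.14).

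Among known targets, 1 gene passed, in Astrocytes alone. There 9.95% of all genes were called, 105 higher and 395 lower. A single call among the few targets tested is therefore not read as a result about the targets. Of 12 extracellular matrix genes 1, 1 and 2 were tested and none was called. Sparc, a matrix protein, had 36 to 46 raw counts in WT and 21 to 25 in KIN Astrocytes (−0.61, adjusted p = 0.222). In Microglia it had 26 to 54 against 7 to 20 (−1.03, adjusted p = 0.166). These counts did not overlap in either fraction, beside gene medians of −0.35 and −0.10. With protein-coding rows alone the 1 matrix gene tested had −0.07 in Astrocytes and −0.97 in Microglia, and was not called. In Neurons Sparc had −0.05 and Fbn1, the microfibril protein fibrillin, the second gene tested there, had 1.88 (adjusted p = 0.939) with 4 to 8 counts in KIN against 0 to 2 in WT. Of 6 genes of DNA methylation and demethylation 4, 3 and 2 were tested and none was called, among them the methyltransferase Dnmt3a (−0.93, −0.03 and 1.14) and the dioxygenases Tet3 (−0.11, −0.35 and −0.38) and Tet2 (0.03 in Astrocytes, −0.04 in Microglia, not tested in Neurons). Of 6 cell death genes only Mcl1, an anti-apoptotic BCL2 relative, was tested (1.34, 0.20 and 0.39), and it was not called.

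Of 9 other targets 4 were tested in each fraction, and Vegfa, the vascular growth factor, was lower in KIN Astrocytes (−1.72, SE 0.52, adjusted p = 0.0383), with 11 to 25 counts in WT and 1 to 8 in KIN. This call was absent when only protein-coding rows were summed. Its list had a median of −0.28 in Astrocytes, −0.38 in Microglia and 0.09 in Neurons, beside the medians of all genes given above.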

How the data were processed

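Small RNA was sequenced from 18 libraries. Per the labels and the study's methods, the authors trimmed reads and placed them with Bowtie2 in successive rounds on mature miRNAs, tRNA genes, piRNAs and Ensembl noncoding and coding transcripts of mm39 (the build GRCm39), then counted them with HTSeq without strand. The submitters' processing notes name cutadapt 4.6, FastQC 0.11.9, MultiQC 1.23, Bowtie2 2.4.4, HTSeq 2.0.2 and DESeq2. The deposited counts are whole reads per feature and are not normalized. Molecular identifiers were ligated, but collapsing by them is described for other libraries of the study only, so counts were taken as reads. A further 36 per-sample columns and the authors' log2 fold changes, p-values and adjusted p-values for KIN against WT were not used.

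Features that reached 5 counts in 2 or more libraries were tested with edgeR 4.0.16 (R 4.3.3; quasi-likelihood, TMM, Benjamini-Hochberg over all features tested), per fraction by genotype and over all 18 libraries for fractions and interactions, and a call needed an adjusted p no higher than 0.05 with a log2 fold change no smaller than 1 in size. Shares were compared by exact two-sided permutation tests (scipy 1.17.1, python 3.11.15). Alternatives were DESeq2 1.42.0, no TMM, mature miRNA totals, no low-count filter, a replicate block, other sample sets and leaving out each library. The scripts were tested on simulated counts. For fractions, the replicate number within genotype was taken as a brain, since the study's methods isolate the 3 fractions from a single brain and Xist was low in all 3 fractions of KIN replicate 1 alone; deviations of same-numbered libraries correlated at −0.126 to 0.271 over 18 pairs, above 0.1 in 4, and the own number correlated best for 7. No 2 libraries of a group agreed within sampling noise.

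The text names the 3 members, their partner arms, hairpins and overlapping transcripts, the 5 mature miRNAs most correlated with each member, and of each gene list those called or the 3 with most counts, or fewer where fewer were tested. Members and lists were chosen with earlier results of these data known. Positions are from GENCODE vM39 on GRCm39. Sequences are from a RefSeq table of GRCm38.p6, and each was found unchanged on GRCm39.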

Additional observations from a re-analysis of the deposited data

Results flagged for a closer look

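On the mature miRNA scale, miR-29a-5p was called in 2 tests of whether the KIN effect differed between fractions. The KIN effect in Neurons minus that in Astrocytes was 2.81 on the log2 scale (SE 0.64, adjusted p = 0.0298, edgeR), and the effect in Neurons minus that in Microglia was 2.96 (SE 0.63, adjusted p = 0.00452). These contrasts called 4.33% and 6.80% of the 485 mature miRNAs tested on that scale. In the fit over all features the same contrasts were 2.02 (SE 0.78, adjusted p = 0.536) and 2.27 (SE 0.78, adjusted p = 0.219) and did not pass. DESeq2 called the second (2.31, adjusted p = 0.0412), and leaving out Neurons WT replicate 2, the only WT library of Neurons with counts of this arm, moved it to 6.70 (adjusted p = 0.00731). Neurons held 6 counts of miR-29a-5p in WT, all in WT replicate 2, and 44 in KIN. The calls rest on these few counts, whose separation is not taken as evidence above.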

How the results depend on the processing

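Directions and calls held in most of the settings tried for the members: in 89 of 108 settings for KIN against WT, 207 of 216 for differences between fractions and 130 of 153 for the difference in KIN effect between fractions. The exceptions follow as log2 values, and unless stated the cause was not tested. For miR-29c-3p in KIN Astrocytes the call was lost without TMM (0.96), on mature miRNA totals (0.43) and in the fit of all 18 libraries (1.08), and single libraries left out gave 0.85 to 1.47. For miR-29b-3p there, the value without the low-count filter (1.05) was called, and leaving out libraries gave 0.65 to 1.19, and 0.46 to 1.05 for miR-29a-3p. miR-29c-3p in Microglia ranged from 0.72 to 1.07 with libraries left out.

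In Neurons miR-29a-3p changed sign without the low-count filter (0.059), in the fit of all 18 libraries (0.021) and with a replicate block (0.093), and leaving out libraries gave −0.41 to 0.57, −1.17 to 0.51 and −1.505 to 0.57 for miR-29a-3p, miR-29b-3p and miR-29c-3p. Between Microglia and WT Astrocytes, miR-29a-3p passed on mature miRNA totals (1.03; 1.01 in KIN) and with the replicate block (1.05), and libraries left out gave 0.72 to 1.49 for it and −2.19 to −1.36 for miR-29c-3p. On mature miRNA totals miR-29a-3p was no longer called between Neurons and Astrocytes (−0.13 in WT, −0.092 in KIN).

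For the KIN effect in Microglia minus that in Astrocytes, DESeq2 turned the sign of miR-29a-3p (0.016) and miR-29b-3p (0.011), and libraries left out gave −0.53 to 0.24, −0.50 to 0.21 and −0.64 to 0.18 for the 3 members. For miR-29a-3p, mature miRNA totals turned the contrasts of Neurons with Astrocytes (0.035) and with Microglia (0.056), and libraries left out gave −1.38 to 0.020 and −1.20 to 0.015. In the contrast of Neurons with Microglia they gave −2.13 to −0.19 for miR-29b-3p and −2.58 to −0.30 for miR-29c-3p. The summed family ratio was 0.53 in Microglia without TMM and, as a share of mature miRNA counts, 0.23 in Astrocytes and 0.052 in Microglia, and leaving out libraries of Neurons gave −0.67 to 0.61.

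Counts of all features called moved by more than 1.5 times as follows. Astrocytes went from 466 to 159 in the fit of all 18 libraries and to 41 to 1527 with libraries left out. Microglia went from 215 to 378 by DESeq2, 426 without the filter, 49 with the replicate block, 334 in the fit of all 18 libraries and 0 to 940 with libraries left out. Neurons went from 0 to 75 without the filter and up to 52 with libraries left out. The interaction counts went from 12 to 108 by DESeq2, 27 without the filter, 85 with the block, 0 without TMM and 0 to 102 with libraries left out for Microglia against Astrocytes, from 0 to 4 without the filter and up to 2 with libraries left out for Neurons against Astrocytes, and from 101 to 183 by DESeq2 and 15 to 282 with libraries left out for Neurons against Microglia. Between fractions, Microglia against Astrocytes in KIN went from 1714 to 1105 without the filter, and Neurons against Astrocytes in WT from 2674 to 1698 in the fit of those 6 libraries. Between WT and KIN the replicate numbers were not shown to pair the libraries: deviations from group means correlated at −0.126 to 0.0989 in 9 pairs, above 0.1 in 0 of them, and the own number correlated best for 0 of 9. Beside the values given here and in the report, the replicate block changed no other call of a member, nor of an arm or hairpin between Microglia and Astrocytes.

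Depth limits miR-29c-3p, the 5p arms and the target genes in Neurons, where 3 counts are up to 2.48 CPM.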
